A study of Mus musculus with 12 samples.

Results

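The Toll-like receptor genes of mouse macrophages and Cd14 were followed by RNA sequencing across 4 groups of cultures. The 10 genes were Tlr1, Tlr2, Tlr3, Tlr4, Tlr6, Tlr7, Tlr8, Tlr9, Tlr13 and Cd14, chosen by name from the 56980 gene IDs of the counts table. Earlier results of these data were known when they were chosen. All 10 were matched by symbol and all 10 passed the filter on low counts, which 15110 genes passed in all. The cells were bone marrow-derived macrophages, grown for 7 days with L929-conditioned medium, which supplies macrophage growth factor. Their genotype was wildtype (WT) or RankCre-Regnaes3cKO (cKO), a conditional knockout of Regnase-3, the RNA-binding zinc finger protein encoded by Zc3h12c, with a Cre named after Rank. M0 cultures received no stimulus. M1 cultures received 100 ng/ml LPS, the lipopolysaccharide of bacterial outer membranes, and 10 ng/ml interferon-gamma, for a length of time that was not stated in the labels. Each of the 4 groups (WT_M0, cKO_M0, WT_M1 and cKO_M1) had 3 libraries. Strain, age, the deleted exons and whether replicates were separate animals were not stated in the labels, so p-values measure only the spread between these libraries, which may be technical. No Cre-only control is described, so an effect of Cre and one of the deletion cannot be told apart.

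Toll-like receptors are pattern recognition receptors that bind molecules of microbes through a leucine-rich ectodomain and signal through a cytoplasmic TIR domain and the adaptors MyD88 and TRIF. At the cell surface TLR4 binds LPS together with MD-2, with CD14 handing over the LPS, while TLR2 pairs with TLR1 or TLR6 to bind bacterial lipopeptides. In endosomes TLR3 binds double-stranded RNA, TLR7 and TLR8 single-stranded RNA and its breakdown products, TLR9 DNA with unmethylated CpG, and TLR13, which humans lack, bacterial ribosomal RNA. LPS, given in the M1 stimulus, is thus itself a ligand of one of these receptors.

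Tlr1 and Tlr6 are neighbouring genes on chromosome 5 with coding sequences of 2388 and 2421 bases, and part of these sequences is the same in both. The reference transcripts (GENCODE M21, GRCm38) shared an identical run of 229 bases, against at most 18 bases for any other pair of the 9 receptors. Of all windows of 100 bases, 8.85% of the Tlr1 transcript and 7.24% of the Tlr6 transcript also occurred in the other. A read that lies wholly within such a window cannot be assigned to 1 of the 2 genes by its sequence. The window length was a choice, and the handling of multi-mapping reads was not stated. The separate values of Tlr1 and Tlr6 are thus uncertain to an extent that was not measured. The 150 bases shown for each gene start 60 bases before the 229-base run, within the coding sequence, and differ at 1 base, given in capitals.
Tlr1: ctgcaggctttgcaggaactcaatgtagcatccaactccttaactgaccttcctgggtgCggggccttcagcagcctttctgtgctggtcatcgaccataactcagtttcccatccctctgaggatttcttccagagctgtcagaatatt
Tlr6: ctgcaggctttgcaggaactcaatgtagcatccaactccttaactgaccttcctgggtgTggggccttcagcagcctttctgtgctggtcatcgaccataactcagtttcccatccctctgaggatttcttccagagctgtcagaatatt

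Promoters of 4 receptors that the results turn on are shown for context, as the 250 bases before the transcription start in RefSeq (GRCm38.p6), 5′ to 3′ on the strand of the gene. RefSeq entries were matched for 7 of the 10 genes (9 starts, since Tlr1 and Tlr6 have 2 each). The 6 motifs searched on both strands, overlaps allowed, are in capitals where they matched. These were the kappaB motif (GGG, any 2 bases, TTTCC), the interferon-stimulated response element or ISRE (GAAA, any 2 bases, GAAA), the gamma-activated site (GAS) TTCNNNGAA, PU.1 GAGGAA, AP-1 TGANTCA and C/EBP TTGCNNAA. Among 32851 promoters of this length, the kappaB motif was in 1.41%, the ISRE in 2.98%, GAS in 7.02%, PU.1 in 23.3%, AP-1 in 6.75% and C/EBP in 9.56%. A match describes these letters and is not evidence of a bound site. Tlr2 (chr3:83841609-83841858, minus strand) is shown as the receptor that fell most after stimulation. None of the 6 motifs was found in it as spelled above. Other spellings of these sites, including the kappaB site, were not searched, so their absence is not shown.
Tlr2: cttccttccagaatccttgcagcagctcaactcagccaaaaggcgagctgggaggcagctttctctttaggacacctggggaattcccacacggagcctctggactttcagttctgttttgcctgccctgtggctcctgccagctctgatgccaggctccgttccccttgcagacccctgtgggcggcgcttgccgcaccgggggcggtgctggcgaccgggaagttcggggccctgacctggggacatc
One start of Tlr6 (chr5:64959167-64959416, minus strand) held 2 overlapping ISRE matches and a C/EBP match.
Tlr6: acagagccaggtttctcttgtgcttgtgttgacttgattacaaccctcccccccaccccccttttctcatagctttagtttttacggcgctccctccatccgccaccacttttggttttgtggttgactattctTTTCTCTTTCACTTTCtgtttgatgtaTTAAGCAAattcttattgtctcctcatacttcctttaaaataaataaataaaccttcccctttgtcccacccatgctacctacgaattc
Tlr8 (chrX:167264330-167264579, minus strand), the endosomal receptor with the largest difference between genotypes, had a GAS, a PU.1 and a C/EBP match.
Tlr8: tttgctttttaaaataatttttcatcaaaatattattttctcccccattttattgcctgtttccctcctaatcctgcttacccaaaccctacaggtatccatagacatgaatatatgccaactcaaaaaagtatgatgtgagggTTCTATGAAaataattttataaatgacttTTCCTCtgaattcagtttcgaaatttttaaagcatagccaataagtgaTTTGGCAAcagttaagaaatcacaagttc
Tlr9 (chr9:106222348-106222597, plus strand), the receptor that rose most after stimulation, had a PU.1 and an AP-1 match.
Tlr9: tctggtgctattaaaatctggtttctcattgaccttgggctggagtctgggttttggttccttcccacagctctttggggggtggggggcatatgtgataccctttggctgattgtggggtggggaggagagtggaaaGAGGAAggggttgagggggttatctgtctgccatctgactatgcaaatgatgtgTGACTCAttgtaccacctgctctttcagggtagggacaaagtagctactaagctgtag
Of the other starts, 1 of Tlr1 held a GAS and 1 a PU.1 match, Tlr3 a kappaB and a C/EBP match and Tlr13 a PU.1 match.

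Library totals lay between 41721452 and 42197986 counts, and the counts of the 10 genes lay between 717 and 25618 per library. The macrophage genes Adgre1, Csf1r and Lyz2 were abundant in every group, at 2315, 2481 and 9855 CPM in WT_M0 (counts per 1000000 on the scale of TMM, trimmed mean of M-values, which adjusts for the composition of a library). Of the 8 macrophage markers, Itgam was higher in cKO_M1 than in WT_M1 (0.25), Cd68 (-0.46) and Mrc1 (-1.03) were lower and 5 were not called. Mrc1, a marker of unstimulated and alternatively activated macrophages, went from 957 CPM in WT_M0 to 21.4 CPM in WT_M1 and 10.5 CPM in cKO_M1. The T cell genes Cd3e and Cd3g had 0 counts in every library. The targeted gene Zc3h12c did not differ detectably between genotypes in M0 (log2 fold change -0.07, SE 0.12) and was lower in cKO_M1 than in WT_M1 (-0.68, SE 0.12). The X-linked genes Tlr7, Tlr8 and Tlr13 were read in libraries alike in sex-linked transcripts: Xist had 6426 to 14679 counts in every library and the 4 Y-linked genes examined had at most 5.

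Levels of different genes were compared per length, as RPKM (CPM per 1000 bases of gene length). Cd14 was the highest of the 10 in every group, at 239 ± 16.4 RPKM in WT_M0 (SD, n = 3), 267 ± 32.3 in cKO_M0, 125 ± 4.26 in WT_M1 and 217 ± 14.1 in cKO_M1. Tlr13 came next in every group, at 93.2 ± 3.74 RPKM in WT_M0 and 106 ± 9.69 in WT_M1. In WT_M0 the order went on with Tlr7 (50.1 RPKM), Tlr8 and Tlr2 (39.9 each), Tlr1 (17.7), Tlr4 (17.6), Tlr9 (16.1), Tlr6 (5.21) and Tlr3 (3.69). The libraries of Tlr8 and Tlr2 overlapped in that order, as did those of Tlr1 and Tlr4 and of Tlr4 and Tlr9, and the other neighbours were apart. In WT_M1 Tlr9 followed Tlr13 at 85.0 RPKM, Tlr2 stood near the end at 11.3 RPKM, and Tlr3 was again the lowest at 5.91 RPKM. Tlr4, the LPS receptor, thus had 17.9 RPKM in WT_M1, where its partner Cd14 had 125 RPKM. In cKO_M1 the ranks were those of WT_M1, but the libraries of Tlr7, Tlr1 and Tlr8, at 38.2, 37.0 and 34.4 RPKM, overlapped with their neighbours in the order.

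**Figure D1:**
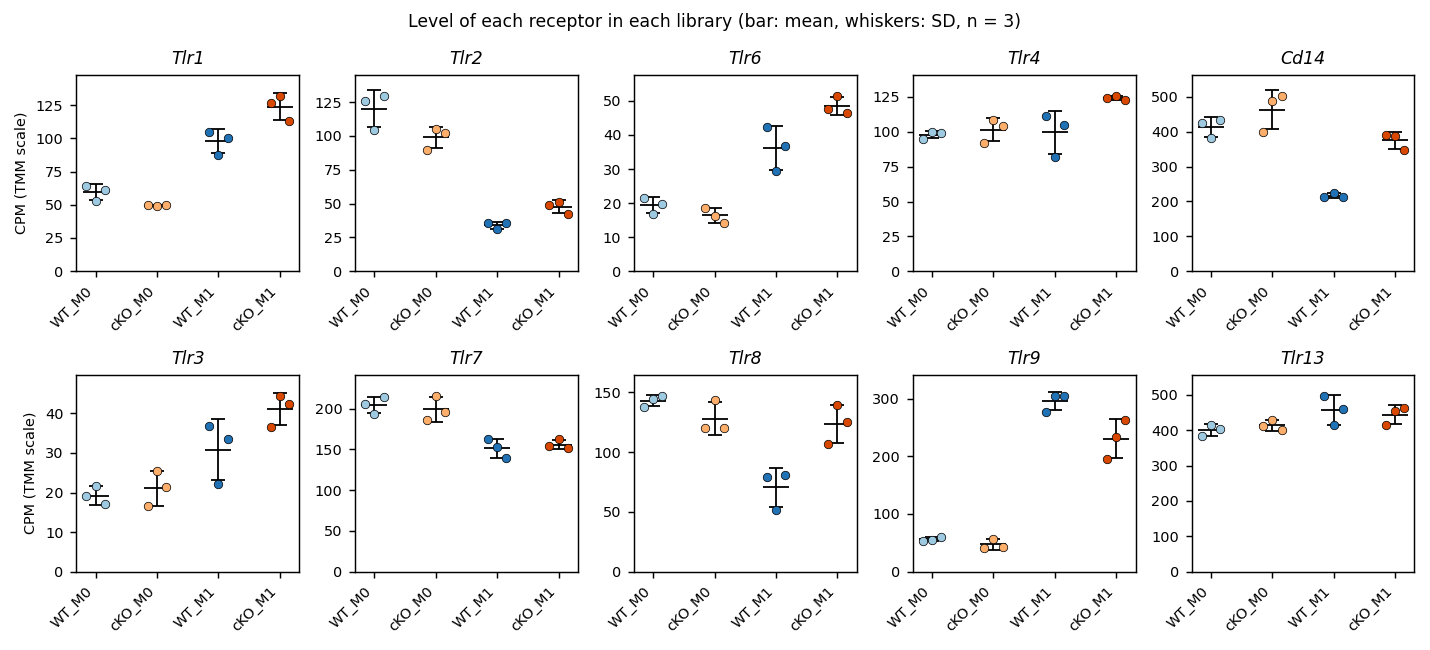
Each panel plots the level of 1 gene in CPM on the TMM scale (vertical axis) in the 3 libraries of WT_M0, cKO_M0, WT_M1 and cKO_M1, with points for libraries, a bar for the mean and whiskers for the SD. Cd14 and Tlr8 show the cKO_M1 libraries above all WT_M1 libraries, Tlr9 rises in both M1 groups and Tlr13 is nearly level.

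The first question was how the receptors moved when wild-type macrophages were stimulated. In WT, Tlr9 rose and Tlr2, Tlr8, Cd14 and Tlr7 fell, and Tlr1, Tlr6, Tlr3 and Tlr13 passed as higher, though Tlr13 turned to a fall when libraries were scaled by their totals alone. That made 9 of 10 genes called (5 higher, 4 lower), where 71.4% of all tested genes were called (34.2% higher, 37.1% lower), so the count itself does not set the receptors apart. For 8 of 10 genes the libraries of the groups did not overlap, against 75.6% of all tested genes. Their median log2 fold change was 0.11, against -0.07 for all tested genes. A gene was called at a Benjamini-Hochberg adjusted p under 0.05 in edgeR's quasi-likelihood test.

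Tlr9 had 52.5, 55.4 and 60.1 CPM in WT_M0 replicates 4, 5 and 6, and 278, 305 and 304 CPM in WT_M1 replicates 10, 11 and 12. Every stimulated library was thus far above every unstimulated one (log2 fold change 2.40, SE 0.13, adjusted p = 1.36e-10, 5.28-fold). In cKO the same gene went from 40.8, 57.1 and 42.9 CPM (replicates 1, 2 and 3) to 196, 234 and 263 CPM (replicates 7, 8 and 9), a log2 fold change of 2.30 (SE 0.13). The difference between these 2 responses was -0.10 (SE 0.18, adjusted p = 0.770).

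Tlr2 moved the other way. It had 126, 104 and 129.8 CPM in WT_M0 and 35.4, 31.1 and 35.4 CPM in WT_M1, with no overlap (log2 fold change -1.82, SE 0.11, adjusted p = 3.24e-10, 3.54-fold lower). In cKO it fell from 89.9, 104.8 and 102 CPM to 49.3, 51.5 and 42.3 CPM (log2 fold change -1.05, SE 0.10, adjusted p = 1.91e-07). Its 2 possible partners rose in the same libraries. Tlr1 went from 64.3, 52.7 and 61.1 to 105, 87.7 and 100.3 CPM in WT (log2 fold change 0.72, SE 0.09), and Tlr6 from 21.5, 16.9 and 19.8 to 42.4, 29.3 and 36.6 CPM (0.90, SE 0.13). The ratio of Tlr2 to Tlr1, both per length, was 2.02 to 2.39 in the 6 M0 libraries and 0.374 to 0.433 in the 6 M1 libraries. Tlr2 was thus the more abundant transcript of the pair in every M0 library and the less abundant in every M1 library.

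Cd14 fell from 424, 381 and 435 CPM in WT_M0 to 213, 226 and 212 CPM in WT_M1 (log2 fold change -0.93, SE 0.09, adjusted p = 2.41e-07). Tlr4 stood at 95.2, 99.9 and 98.8 CPM in WT_M0 and at 111, 82.2 and 105 CPM in WT_M1, and the groups overlapped (0.02, SE 0.10, 95% interval -0.19 to 0.23). Of the RNA sensors, Tlr8 fell from 138, 144 and 147 to 79.4, 51.7 and 80.5 CPM (log2 fold change -1.02, SE 0.14, adjusted p = 1.02e-05). Tlr7 fell less, from 206, 193 and 214 to 162, 153 and 139 CPM (-0.43, SE 0.08, adjusted p = 0.000197). Tlr3 rose from 19.1, 21.6 and 17.0 to 36.8, 22.1 and 33.5 CPM (0.68, SE 0.18, adjusted p = 0.00271). WT_M1 replicate 11 was the lowest of its group for Tlr1, Tlr2, Tlr3, Tlr4, Tlr6, Tlr8 and Tlr13. Tlr13 had 384, 416 and 403 CPM in WT_M0 and 497, 414 and 459 CPM in WT_M1, which overlap (0.19, adjusted p = 0.04998). Its call was lost in 5 of 6 fits that left out 1 library, all but the fit without WT_M1 replicate 11.

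In cKO, 8 of 10 genes were called after stimulation (5 higher, 3 lower), where 70.2% of all tested genes were called (34.2% higher, 36% lower). The groups did not overlap for 8 of 10 genes, against 72.7% of all tested genes. Tlr1 and Tlr6 rose by 1.33 and 1.57 (SE 0.09 and 0.14), Tlr3 by 0.96 (SE 0.18) and Tlr4 by 0.29 (SE 0.10, adjusted p = 0.0159), the last turning to a fall with library totals alone. Tlr7 fell by 0.35 (SE 0.08) and Cd14 by 0.30 (SE 0.09, adjusted p = 0.00895) on the log2 scale. Tlr8 went from 120, 144 and 120 to 107, 139 and 125 CPM and was not called (-0.05, 95% interval -0.35 to 0.25), nor was Tlr13 (0.10, 95% interval -0.07 to 0.27). The call of Cd14 was lost without cKO_M0 replicate 3 (adjusted p = 0.0516) and that of Tlr4 without cKO_M0 replicate 1 (adjusted p = 0.0838).

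Changes between M0 and M1 depend on how libraries are scaled, because TMM factors averaged 1.21 and 1.22 in WT_M0 and cKO_M0 against 0.808 and 0.840 in WT_M1 and cKO_M1. With library totals alone, the log2 changes of all genes dropped by a median of 0.58 in WT and 0.54 in cKO, and 23.5% of the called genes in WT and 24.2% in cKO were higher, against 48.0% and 48.7% with TMM. On that scale Tlr9 still rose by 1.82 in WT, and the falls of Tlr2, Tlr8, Cd14 and Tlr7 in WT passed with larger values. The rises of Tlr1, Tlr6 and Tlr3 in WT were then not called (0.13, 0.31 and 0.10). Tlr4 and Tlr13 turned to called falls in WT (-0.56 and -0.39) and in cKO (-0.24 and -0.43), and Tlr8 in cKO became a called fall (-0.59).

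**Figure D2:**
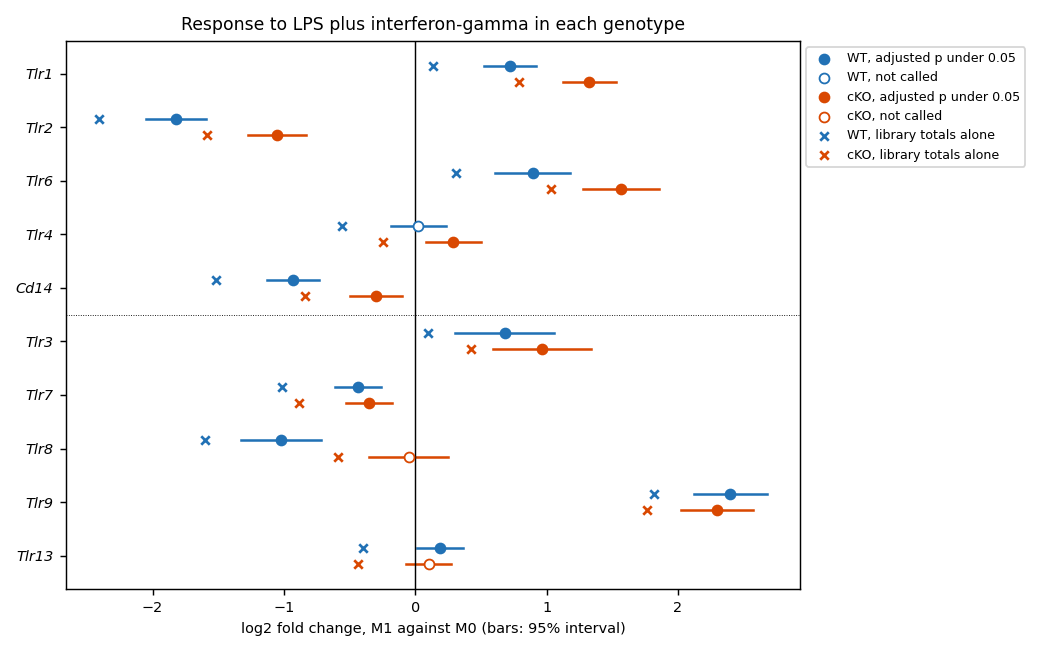
Log2 fold change of M1 against M0 (horizontal axis) for each gene in WT and cKO, with 95% intervals as bars, filled points for adjusted p under 0.05 and crosses for values scaled by library totals alone. Tlr9 lies far to the right in both genotypes, Tlr2 to the left, and the cKO points of Tlr1, Tlr2, Tlr6, Cd14 and Tlr8 lie to the right of the WT points.

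The second question was whether the receptors differed between cKO and WT before stimulation. None of the 10 genes passed in M0, where 1.61% of all tested genes were called (0.662% higher, 0.953% lower). By edgeR, 2 genes had an unadjusted p under 0.05, and DESeq2 and limma-voom called 0 as well. Those 2 were Tlr1, with 49.5, 48.8 and 49.8 CPM in cKO_M0 against 52.7 to 64.3 in WT_M0 (log2 fold change -0.27, 95% interval -0.46 to -0.07, adjusted p = 0.147), and Tlr2 (-0.28, 95% interval -0.50 to -0.06, adjusted p = 0.161). For Tlr4 the interval was -0.16 to 0.26, for Cd14 -0.03 to 0.36 and for Tlr7 -0.21 to 0.14. The libraries of the genotypes did not overlap for 1 of 10 genes, Tlr1, against 26.2% of all tested genes.

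After stimulation, in contrast, 6 of 10 genes were higher in cKO and none was lower. They were all 5 cell-surface genes, Cd14, Tlr2, Tlr6, Tlr1 and Tlr4, and of the 5 endosomal receptors Tlr8. Over all tested genes, 18.6% were called in this comparison, 8.98% as higher and 9.67% as lower. The median log2 fold change was 0.43 for the cell-surface genes and 0.04 for the endosomal receptors, against 0.02 for all tested genes. Of all called genes 48.2% were higher in cKO, a share of 61.5% with library totals alone, and under that scaling these 6 receptors were called as higher too. Libraries of the genotypes did not overlap for 7 of 10 genes, against 33.7% of all tested genes. In bulk samples such as these, fewer cells that express a gene and less RNA per cell cannot be told apart.

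Cd14 had 213, 226 and 212 CPM in WT_M1 and 391, 389 and 348 CPM in cKO_M1. All cKO libraries were above all WT libraries (log2 fold change 0.79, SE 0.09, adjusted p = 8.07e-05, 1.73-fold), and the call held in each of the 6 fits that left out 1 M1 library, at 0.75 to 0.83. Tlr8 had 79.4, 51.7 and 80.5 CPM in WT_M1 and 107, 139 and 125 CPM in cKO_M1 (0.81, SE 0.14, adjusted p = 0.00131, 1.75-fold). Its call also held in all 6 such fits, the lowest value, 0.61, coming without WT_M1 replicate 11. For Tlr2 the WT_M1 libraries at 35.4, 31.1 and 35.4 CPM lay below the cKO_M1 libraries at 49.3, 51.5 and 42.3 CPM (0.49, SE 0.10, adjusted p = 0.00451), and it too was called in all 6 fits.

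The other 3 calls were less stable. Tlr1 was at 105, 87.7 and 100.3 CPM in WT_M1 and at 126, 132 and 113 CPM in cKO_M1 (0.34, SE 0.09, adjusted p = 0.0177). Tlr6 had 42.4, 29.3 and 36.6 CPM against 47.6, 51.5 and 46.4 CPM (0.43, SE 0.13, adjusted p = 0.0348). For Tlr4 the values were 111, 82.2 and 105 CPM against 124, 126 and 123 CPM (0.32, SE 0.10, adjusted p = 0.0342). In all 3 genes no library of one genotype reached into the range of the other. Tlr1 lost its call without WT_M1 replicate 11 or cKO_M1 replicate 7 or 8 (adjusted p up to 0.120). Tlr4 lost it without WT_M1 replicate 11 or cKO_M1 replicate 7, 8 or 9 (up to 0.156), and also with median-ratio scaling factors (0.0502) or only the 6 M1 libraries in the fit (0.0891). Tlr6 lost it without the same libraries or WT_M1 replicate 12 (up to 0.201). Thus 3 of the 10 genes were called without WT_M1 replicate 11, cKO_M1 replicate 7 or cKO_M1 replicate 8. With the counts of Tlr1 and Tlr6 summed into 1 feature, because of the sequence they share, the difference was 0.36 (adjusted p = 0.0167).

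Of the endosomal receptors that were not called, Tlr9 had 278, 305 and 304 CPM in WT_M1 and 196, 234 and 263 CPM in cKO_M1. All its cKO libraries were below all WT libraries, but the adjusted p was 0.0560 (log2 fold change -0.36, SE 0.12, 95% interval -0.62 to -0.09), and DESeq2 and limma-voom called it as lower (adjusted p = 0.0331 and 0.0430). Tlr3 had 36.8, 22.1 and 33.5 CPM in WT_M1, which the cKO_M1 values of 36.5, 44.4 and 42.4 CPM overlap (0.42, 95% interval 0.05 to 0.79, adjusted p = 0.110). It was called as higher when no filter on low counts was used (adjusted p = 0.00509). Tlr7 had 162, 153 and 139 CPM against 154, 162 and 152 CPM (0.04, 95% interval -0.13 to 0.22). Tlr13 had 497, 414 and 459 CPM against 415, 455 and 463 CPM (-0.04, 95% interval -0.21 to 0.13). For Tlr7 and Tlr13 the libraries of the genotypes overlapped.

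**Figure D3:**
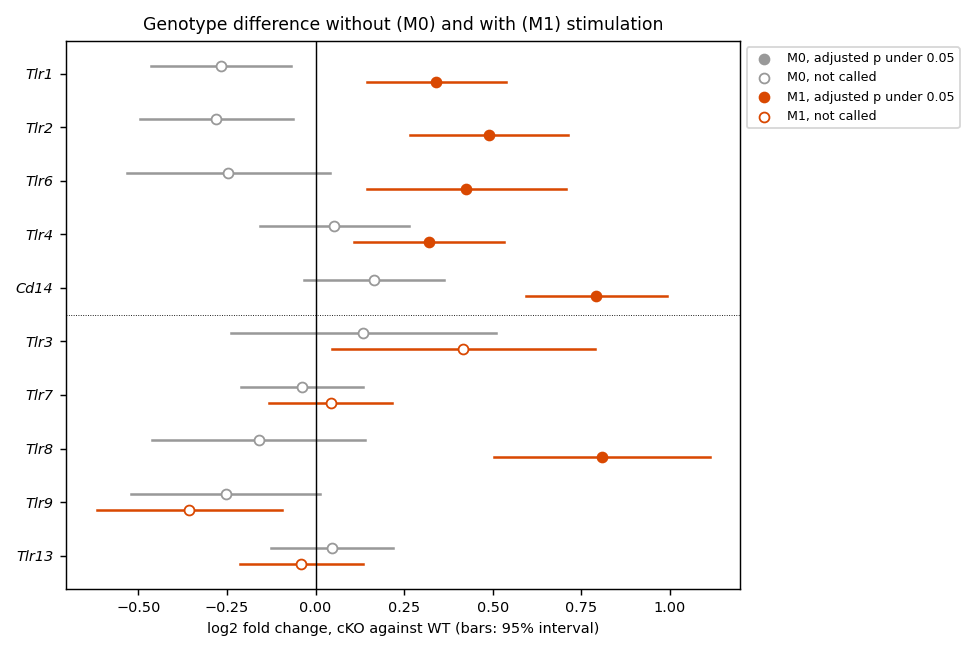
Log2 fold change of cKO against WT (horizontal axis, bars for 95% intervals) for each gene in M0 (grey) and M1 (orange), filled where adjusted p was under 0.05. No M0 point is filled, whereas the M1 points of the 5 cell-surface genes above the dotted line and of Tlr8 are filled and lie between 0.32 and 0.81.

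**Figure D4:**
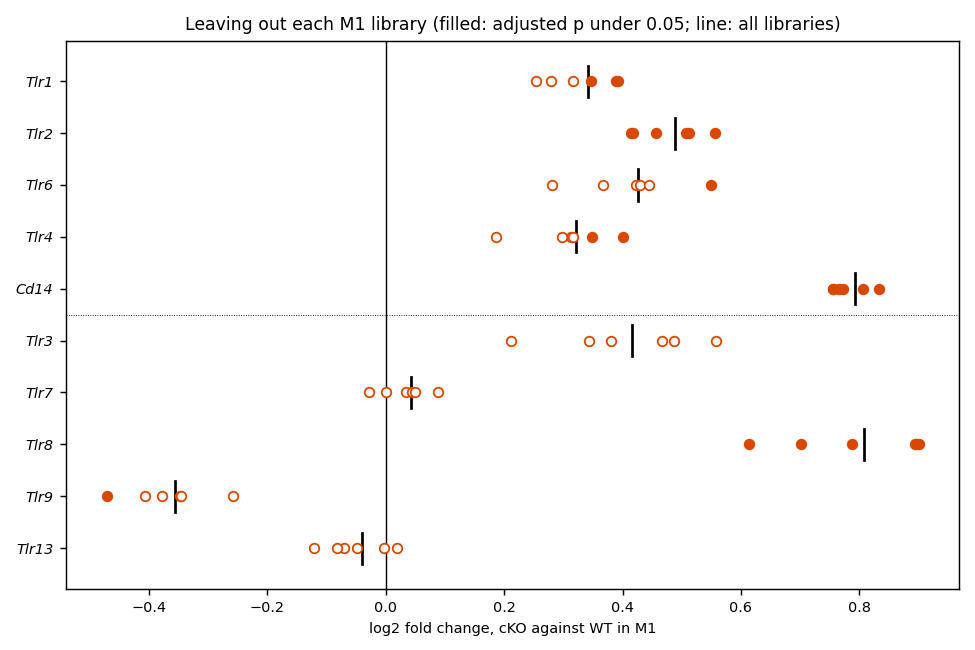
Log2 fold change of cKO against WT in M1 (horizontal axis) for each gene, with 1 point for each of the 6 fits that left out 1 M1 library, filled where adjusted p was under 0.05, and a line for the fit of all libraries. All 6 points are filled for Tlr2, Cd14 and Tlr8, and 3, 1 and 2 points for Tlr1, Tlr6 and Tlr4. For Tlr9, 1 point, to the left of 0, is filled.

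Whether the genotype difference itself differed between M1 and M0 was tested as an interaction. This test uses the same 12 libraries as the comparisons above and is not independent of them. The value of cKO against WT was higher in M1 than in M0 for Tlr8 (0.97, SE 0.20, adjusted p = 0.00968), Tlr2 (0.77, SE 0.15, adjusted p = 0.00597), Cd14 (0.63, SE 0.13, adjusted p = 0.00999), Tlr1 (0.61, SE 0.13, adjusted p = 0.0120) and Tlr6 (0.67, SE 0.19, adjusted p = 0.0402). That is 5 of 10 genes, all in 1 direction, where 8.16% of all tested genes were called with 4.02% higher and 4.14% lower. Of the called genes, 49.3% were higher, or 60.5% with library totals alone. In M0 the log2 fold change of cKO against WT was below 0 for Tlr8 (-0.16), Tlr2 (-0.28), Tlr1 (-0.27) and Tlr6 (-0.25). For Cd14 it was 0.16, and none of these M0 values was called. The interactions of Tlr8, Tlr2, Tlr1 and Tlr6 thus include an M0 value in the other direction. The calls of Tlr2, Cd14 and Tlr8 held in all 12 fits that left out 1 library and that of Tlr1 in 11, all but the fit without cKO_M1 replicate 8 (adjusted p = 0.0510). Tlr6 was called in only 3 of these 12 fits, those without WT_M0 replicate 5, cKO_M0 replicate 1 or WT_M1 replicate 10 (adjusted p otherwise up to 0.117). For Tlr4 the interaction was 0.27 (SE 0.14, adjusted p = 0.261), so its difference in M1 was not shown to differ from that in M0. Tlr3, Tlr7, Tlr9 and Tlr13 had interactions of 0.28, 0.08, -0.10 and -0.09, none of which passed.

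Summed per length over the cell-surface genes, of which Cd14 made up the largest share, the level was 189 to 197 RPKM in WT_M1 and 283 to 318 RPKM in cKO_M1. In M0 this sum was 293 to 335 RPKM in WT and 297 to 362 RPKM in cKO. The sum over the 5 endosomal receptors was 240 to 264 RPKM in WT_M1 and 227 to 263 RPKM in cKO_M1, which overlap. Cd14 exceeded Tlr4 per length by 12.2 to 15.5 times in the 6 M0 libraries, by 6.14 to 8.80 times in WT_M1 and by 9.08 to 10.1 times in cKO_M1.

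Transcripts of other cell types were low in M1, while those of B and plasma cells were higher in M0. Between the M1 groups 1 marker of B and plasma cells (Ighm) and 1 of plasmacytoid dendritic cells (Cox6a2) were called, both lower in cKO, and 0 tested markers of neutrophils, T and NK cells, dendritic cells, mast cells or stromal cells. The 8 markers of B and plasma cells summed to 3.16 to 5.20 CPM in WT_M1 and 0.455 to 0.794 CPM in cKO_M1. In M0 that sum was 32.9 to 70.6 CPM, most of it Ighm at 53.1 ± 5.92 CPM in WT_M0 and 37.1 ± 9.76 CPM in cKO_M0. Tlr9 had 56.0 and 46.9 CPM in the same groups. Within cKO_M0, Igkc had 318 counts in replicate 1 against 4 and 0 in replicates 2 and 3, and Jchain 284 against 8 and 2. The 5 markers of plasmacytoid dendritic cells, a cell type rich in Tlr7 and Tlr9, summed to 3.16 to 4.12 CPM in WT_M1 and 2.15 to 2.47 CPM in cKO_M1, nearly all of it Cox6a2 (106 to 123 counts in WT_M1), while Siglech had 0 counts in all 6 M1 libraries. The part of B cells and plasmacytoid dendritic cells, which both carry TLR9, in the Tlr9 values was not tested. For the 9 neutrophil markers the sums were 6.49 to 11.03 CPM in WT_M1 and 7.30 to 16.2 CPM in cKO_M1. Cd14 levels were 212 to 391 CPM in the same libraries. Nearly all of the neutrophil sum was S100a8, at 8.04 ± 2.22 CPM in WT_M1 and 11.2 ± 4.22 CPM in cKO_M1. S100a9 had 0.118 and 0.114 CPM in these groups, and Ly6g had at most 2 counts in any library.

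The other Toll-like receptor genes of the mouse were rare. Tlr5, the flagellin receptor, had 4.58 ± 0.730 CPM in WT_M0 and 0.156 ± 0.179 CPM in WT_M1 (SD, n = 3). Tlr12 went from 0.0522 ± 0.0597 to 6.58 ± 0.611 CPM in WT and to 8.71 ± 0.507 CPM in cKO_M1. Both changes passed, in both genotypes, and Tlr11 stayed at or under 0.208 CPM on average in each group. Between cKO and WT, 0 of these 3 genes were called in M0 or in M1, where 1.61% and 18.6% of all tested genes were, and 1 was called in M1 without WT_M1 replicate 11.

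Genes that work with the receptors were read from lists chosen by name, with earlier results of these data known. In WT after stimulation, 13 of 20 genes of chaperoning, trafficking and ligand processing rose and 4 fell (median 0.66), with Slc15a3, an endolysosomal transporter, at 3.74 (SE 0.09). Of 6 tested TIR adaptors, 4 rose and 2 fell (median 0.81), among them Ticam1, which encodes TRIF, at 1.88 (SE 0.10). Of 21 kinases, ubiquitin ligases and transcription factors 14 rose and 3 fell, Tbk1 by 1.55 and Irak2 by 2.23 upward. Of 16 inhibitors 8 rose and 4 fell, with Tnfaip3, which encodes A20, at 3.63 and Socs1 at 5.47. The share called over all tested genes was 71.4%.

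In M1, cKO and WT differed at several steps of the pathway, in a comparison that called 18.6% of all tested genes (8.98% higher, 9.67% lower). Of the TIR adaptors, 2 of 6 were higher in cKO and none was lower. Myd88, which encodes the adaptor of every Toll-like receptor here but TLR3, was at 133 ± 21.2 CPM in WT_M1 and 200.5 ± 13.0 CPM in cKO_M1 (log2 fold change 0.59, SE 0.11, adjusted p = 0.00151). Tirap, which encodes the bridging adaptor of TLR2 and TLR4, went from 14.7 ± 3.20 to 23.7 ± 1.36 CPM (0.69, SE 0.14, adjusted p = 0.00268). Ticam1 and Ticam2, the adaptors of the TRIF branch, had values of -0.18 and -0.03 and were not called (both named after their values were seen). The list median was 0.13, against 0.02 for all tested genes.

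Of 20 chaperones, trafficking factors and endolysosomal enzymes, 7 were lower, 0 were higher and 13 were not called (median -0.14). Fits that left out 1 library called 3 (without cKO_M1 replicate 8) to 6 of them. Pld3, an endolysosomal exonuclease that degrades nucleic acid ligands, fell in cKO from 984 ± 86.7 to 639 ± 71.8 CPM (-0.62, SE 0.09, adjusted p = 0.000354). The lysosomal proteases Ctsb and Lgmn fell by 0.29 (SE 0.07) and 0.25 (SE 0.07) on the log2 scale, the second of which lost its call without cKO_M1 replicate 8 (adjusted p = 0.0583). Among 10 coreceptors and accessory proteins Itgam was higher (0.25) and Lgals3 (-0.39) and Clec7a (-0.74) were lower. Fits that left out 1 library called 1 to 2 of these 10. The call of Itgam was kept in 2 of the 6 fits that left out 1 M1 library, and that of Clec7a in 0 of 6 (adjusted p up to 0.152 and 0.131). Ly96, which encodes MD-2 and is named after its values were seen, had a value of 0.21 and was not called.

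Downstream, 4 of 21 kinases, ubiquitin ligases and transcription factors were higher and 4 lower (median -0.02), where 8.98% of all tested genes were higher and 9.67% lower. Without WT_M1 replicate 11, 5 of the 21 were called. Nfkb1 rose by 0.53 (SE 0.08) and Irf3 by 0.52 (SE 0.11), while Traf6, the ubiquitin ligase after the IRAK kinases, fell by 0.50 (SE 0.10) on the log2 scale. Of 16 inhibitors, 4 were higher and 2 lower (median 0.01), Irak3 at 0.64 (SE 0.09), Socs1 at 1.24 (SE 0.21) and Tollip at -0.56 (SE 0.09). Genes that the receptors induce had 8 of 16 higher and 1, Il12b, lower (median 0.41). In M0, where 1.61% of all tested genes were called, 0 genes were called in the lists of coreceptors, trafficking, adaptors and kinases. Other settings called 0 to 9 genes of the trafficking list, the 9 with DESeq2, and at most 1 of each of the other 3 lists. In M0 1 inhibitor (Tnip3) was higher and 3 induced genes were (Ptgs2, Cxcl2 and Tnf). Of the 6 fits that left out an M0 library, Ptgs2, Cxcl2 and Tnf each kept their call in only 2 and Tnip3 in 1. As interactions, a contrast in which 8.16% of all tested genes were called, Il1b (2.95, SE 0.53, adjusted p = 0.00485), Irak3 (0.80, SE 0.12, adjusted p = 0.00227), Nfkb1 (0.60, SE 0.11), Ikbke (0.62, SE 0.13) and Rab7b (-0.45, SE 0.09) were called, also in all 12 fits that left out 1 library. Irf3 (0.59), Ptpn6 (0.47), Cd200r1 (-0.45) and Ctsl (-0.51) passed as well and kept their calls in 7, 6, 4 and 6 of those fits. Myd88 (0.51), Tirap (0.66) and Unc93b1, which encodes the chaperone of endosomal receptors (0.37), were called too, but each kept its call in only 3 of those 12 fits (adjusted p up to 0.115, 0.116 and 0.123). Il1b had only 0.328 ± 0.224 CPM in WT_M0 and 0.124 ± 0.0482 CPM in cKO_M0, and its difference in M1 was 1.56 (SE 0.15). Its interaction thus rests in part on M0 values near 0.

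**Figure D5:**
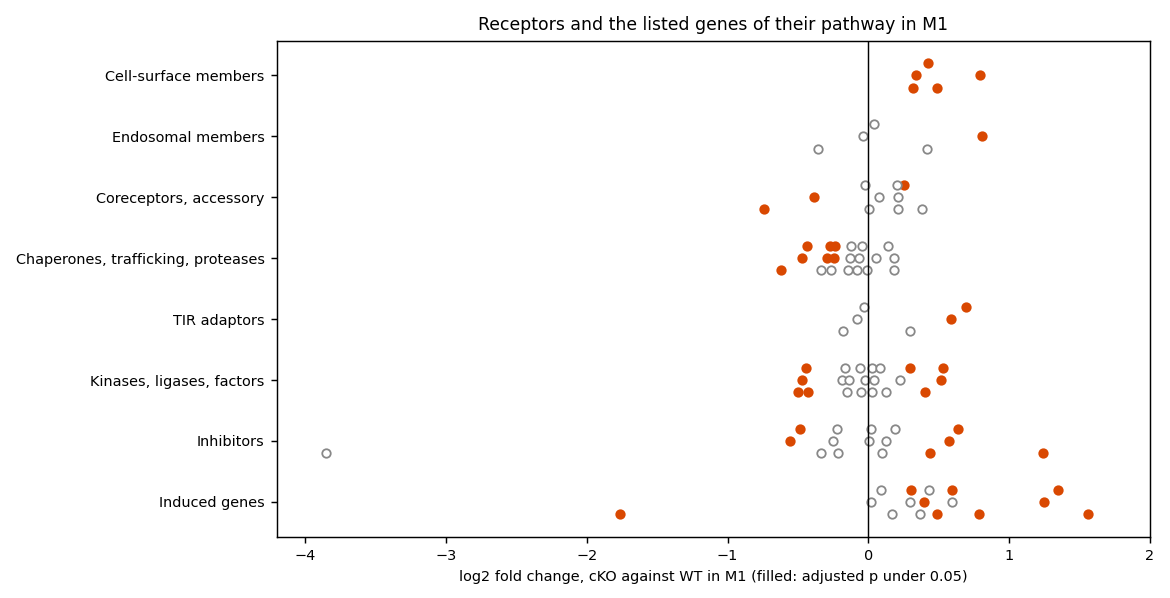
Log2 fold change of cKO against WT in M1 (horizontal axis) for the 2 classes of receptors and 6 lists of genes of their pathway, 1 point per tested gene, filled where adjusted p was under 0.05. All 5 cell-surface points are filled and to the right of 0, the 7 filled points of the trafficking list are to the left, and the open point at -3.85 is Il1rl1, with no counts in cKO_M1.

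The genes whose levels followed each receptor most closely were found by Pearson's r of log2 CPM over the 12 libraries, among 9213 named genes. These libraries share the large M0 to M1 difference, so high values are usual and describe these samples only. Tlr9 was followed most closely by Ptk2b, Tm9sf4 and Hgs (r = 0.998, 0.997 and 0.997), Tlr1 by Slc35f5, Kctd12 and Mefv (r = 0.994, 0.991 and 0.990) and Tlr2 by Galc, Fgd2 and Csad (r = 0.989, 0.988 and 0.988). For Tlr6 the list was Kctd12, Trps1 and Tlr1 itself (r = 0.990, 0.988 and 0.987). Tlr8 had Exoc8, Dido1 and Stk4 (r = 0.984, 0.979 and 0.979) and Tlr3 had Samd9l, Zfp597 and Tor1aip2 (r = 0.988, 0.976 and 0.975). Cd14 was followed by Pdk1, Plxdc2 and Cd2ap (r = 0.963, 0.958 and 0.956) and Tlr4 by Zscan29, Eif2ak2 and G3bp2 (r = 0.964, 0.964 and 0.954). Among the genes most like Tlr7 were Dpy19l4 and Fam3c (r = 0.960 and 0.957). Tlr13, which varied least, had lower values, for Sgms1, Virma and Kpna1 (r = 0.901, 0.884 and 0.881).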

How the data were processed

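The authors deposited raw counts per gene for 12 RNA sequencing libraries, 1 column per library, with a gene length in bases. Per the submitters' processing notes, featureCounts 2.0.3, SAMtools 1.16.1, HISAT2 2.2.1 and Trimmomatic 0.39 were used with GRCm39. The strand setting, the handling of multi-mapping reads and the annotation were not stated there. Among values of 1 to 10, 60.9% were even, so halved counts were an alternative added after seeing the data. IDs were matched to symbols for 52073 of 56980.

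The main test was edgeR's quasi-likelihood test (edgeR 4.0.16, R 4.3.3) after filterByExpr (minimum count 10, minimum total 15) and TMM scaling, with 1 mean per group over all 12 libraries (common biological coefficient of variation 0.111) and 5 contrasts. SE was derived from the fold change and F statistic; intervals are 95%. Alternatives used DESeq2 1.42.0, limma-voom 3.58.1, other scalings and filters, and left out each library. The procedure was tested on simulated data with 200 changed genes, drawn at random from those tested. Of genes changed 1.5-fold between genotypes, it called 51% in M0 and 47% in M1. At 2-fold it called 65% and 68%. False calls were 3.33% of all calls in M0 and 5.74% in M1. A gene that was not called may thus still differ. The members and the 7 pathway lists were chosen with earlier results of these data known. Of each list, up to 3 called genes with the smallest p per contrast were named. Of the listed genes, 1 (Tasl) had no match. Genes alike to a member had at least 5 CPM (prior count 2 on the log scale). A few single-gene results are not reported here.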

Additional observations from a re-analysis of the deposited data

Results flagged for a closer look

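The genotype difference (cKO against WT) differed between M1 and M0 by the interaction term for 5 of the 10 genes. The interaction, as a log2 difference with edgeR's adjusted p, was 0.61 for Tlr1 (adjusted p = 0.0120), 0.77 for Tlr2 (0.00597), 0.67 for Tlr6 (0.0402), 0.63 for Cd14 (0.00999) and 0.97 for Tlr8 (0.00968). Over all tested genes, 8.16% were called in this comparison.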

How the results depend on the processing

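For the 10 genes over 5 contrasts, 736 of 795 values under another setting kept their direction and side of the threshold, 35 lost a call, 8 gained one and 16 changed sign. With library totals alone, Tlr4 and Tlr13 turned from rises to falls in M1 against M0 (-0.56 and -0.39 in WT, -0.24 and -0.43 in cKO), and Tlr13 between genotypes in M1 turned to 0.015. Leaving out 1 library at a time gave ranges that crossed 0 for Tlr4 in WT after stimulation (-0.060 to 0.16), Tlr8 in cKO after stimulation (-0.14 to 0.052), Tlr3 (-0.018 to 0.29), Tlr7 (-0.096 to 0.011) and Zc3h12c (-0.20 to 0.025) between genotypes in M0, Tlr7 (-0.027 to 0.089) and Tlr13 (-0.12 to 0.019) between genotypes in M1, and the interaction of Tlr9 (-0.21 to 0.060). None of these was called with all libraries. The number of the 10 genes called between genotypes in M1 was 6 with all libraries and 3 to 6 with 1 left out, 5 with median-ratio factors, 7 with DESeq2, limma-voom or halved counts and 8 without a filter. For the interaction it was 5 with all libraries and 3 to 5 with 1 left out. Tlr9 in M1 was called as lower by DESeq2, limma-voom, without a filter, with the 6 M1 libraries alone and with halved counts (adjusted p from 0.00139 to 0.0490). It was also called as lower without cKO_M1 replicate 9 (-0.47, adjusted p = 0.0157 by edgeR).

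Over all genes, 244 were called between genotypes in M0, against 871 with DESeq2, 491 with limma-voom, 1182 without a filter on low counts, 394 with only the 6 libraries compared and 373 with halved counts. Leaving out 1 library gave 1 (without cKO_M0 replicate 3) to 407 (without WT_M0 replicate 5). The interaction gave 1233 calls, against 1906 with DESeq2, 1972 without a filter and 565 (without cKO_M1 replicate 8) to 1576 (without WT_M1 replicate 12). In M1 2818 genes differed between genotypes, and 1658 (without WT_M1 replicate 11) to 3082 did with 1 library left out. Why these counts moved was not tested. No paired analysis was possible because the replicate numbers, 1 to 12, are not shared between groups. With 3 libraries a group, the intervals given for M0 do not show that the genotypes were alike. For the 7 pathway lists, the number called moved by over 1.5 times in 28 of 105 alternatives in M0, 7 of 105 in M1 and 29 of 140 for the interaction.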
